A study of Mus musculus with 143 samples.

Results

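Tumours of 2 mouse bladder carcinoma lines, MBT2 and MB49, were compared before any treatment. The part of the series described here is its 6 baseline libraries of bladder models, of 143 libraries in all, chosen by their titles: 3 from MBT2 tumours and 3 from MB49 tumours. MBT2 baseline tumours and MB49 baseline tumours were untreated tumours of the line under the skin of the right lower flank. The same lines in 5 MBT2 isotype tumours and 5 MB49 isotype tumours served as separate tumours of the same kind. Their mice had been injected with the control antibody muIgG1 on days 11 and 15 after implantation and the tumours were excised on day 19. The labels give no excision day for baseline tumours, and no strain, sex or age of the hosts. They class MBT2 as a High and MB49 as a Partial responder to the antibody muDX400 against PD-1. No allele or other agent is named for any of these groups.

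Both are transplantable lines that carcinogens produced in mouse bladder, MBT2 in a C3H mouse and MB49 from C57BL/6 cells, and each is grown in mice of its own strain. Every group is therefore 1 line in 1 host strain, implanted outside the bladder, and the line, the host strain and the tumour each produced cannot be told apart in any value below. The urothelium, from which bladder carcinoma arises, is a layered epithelium. Its umbrella cells carry uroplakins, its luminal cells keratins 8, 18 and 20 with the factors GATA3 and FOXA1, and its basal cells keratins 5 and 14 with p63. Carcinoma cells can lose such epithelial genes and take on mesenchymal ones, among them N-cadherin and the factors TWIST, SNAIL and ZEB. A tumour sample also holds the immune, vascular and connective tissue cells of its host, and in bulk RNA fewer cells of a type and less RNA per cell cannot be told apart.

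Levels are FPKM, fragment counts scaled to transcript length and library total, as the authors deposited them. The steps between the lowest values of a library put its depth at about 20 to 20.5 M fragments in MBT2 baseline libraries and 20.2 to 21.6 M in MB49 baseline libraries, and 12501 to 12794 genes per library reached 1 FPKM. Mitochondrial transcripts took 2.17% to 3.84% of the FPKM total in MBT2 and 3.48% to 4.17% in MB49. The lowest correlation between libraries of a line was 0.976 in MBT2 and 0.973 in MB49 (Pearson's r across genes, log2 scale), and it was 0.822 to 0.848 between the lines. Nothing in the labels says in so many words that each library is a separate mouse, so p-values measure the spread between these samples.

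Differences are MBT2 minus MB49 on the log2(FPKM + 1) scale, where the added 1 shrinks differences of weakly expressed genes, and were tested with limma, 2-sided, at an adjusted p under 0.05 over all 13153 genes with at least 1 FPKM in at least 3 of the 6 libraries. At baseline 6519 genes passed (49.6%), 3564 of them higher in MBT2 (27.1%) and 2955 lower (22.5%). With a log2 difference of at least 1 in size also required, 1314 were higher (9.99%) and 1191 lower (9.05%). The shares set the scale for the gene groups: about 1 gene in 2 passes, so a list is read by how one-sided it is and by its median, beside a median of 0.043 over all genes. A gene that is high in a single model reaches the filter through that model alone, so counts over the members tested describe a list and support nothing. The isotype tumours share no library with the baseline tumours. Of 6272 genes called at baseline and tested in both, 6150 (98.1%) differed in the same direction in isotype tumours and 5794 (92.4%) were called in that direction and 6 in the other, where 70.0% of all 12876 genes tested were called, 38.7% higher and 31.4% lower in MBT2. Pearson's r between the differences was 0.951 across 12683 genes, which are not independent replicates.

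**Figure D1:**
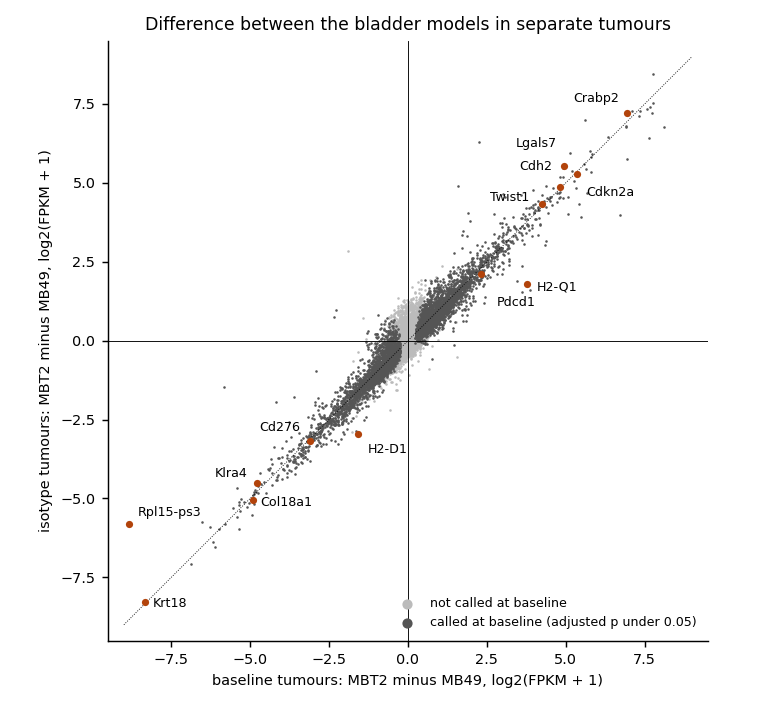
Each point is 1 of 12683 genes: the x axis is the MBT2 minus MB49 difference in baseline tumours and the y axis that in isotype tumours, both on the log2(FPKM + 1) scale, with the line of equality dotted. Most genes called at baseline (dark) lie near the line of equality, among them Krt18 and Crabp2, while H2-D1, H2-Q1 and Rpl15-ps3 lie off it.

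The label of a urothelial carcinoma was checked first. MBT2 tumours had almost no keratin 18 and less keratin 8 than MB49 tumours, and neither line had uroplakins above a trace. Krt18, the luminal keratin that pairs with keratin 8, stood at 0.417, 1.29 and 0.241 FPKM in the MBT2 tumours, against 498, 563 and 490 FPKM in the MB49 tumours. Every MBT2 library lay far below every MB49 library, and the Krt18 difference was -8.34 ± 0.22 (SE, as for every difference below, adjusted p = 3.44e-07). Krt8 had 73.5, 53.8 and 78.2 FPKM in MBT2 tumours and 622, 674 and 614 FPKM in MB49 tumours, so that its partner keratin persisted at a lower level in MBT2 (-3.21 ± 0.15, adjusted p = 3.39e-06). In isotype tumours Krt18 averaged 0.481 FPKM in MBT2 and 436 FPKM in MB49, and Krt8 61.9 FPKM in MBT2 and 524 FPKM in MB49.

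Of the uroplakins, the plaque proteins of umbrella cells, Upk1b was listed at 0 in all 6 libraries, Upk2 averaged 0 FPKM in MBT2 and 0.0738 FPKM in MB49, and Upk3a 0.0298 FPKM in MBT2 and 0.0429 FPKM in MB49. Neither the E-cadherin gene Cdh1 nor the epithelial adhesion gene Epcam was a marker of either line. Cdh1 had 0.857, 0.683 and 1.63 FPKM in MBT2 tumours, against 1.26, 1.12 and 0.625 FPKM in MB49 tumours, and the groups overlapped (adjusted p = 0.924). Epcam averaged 1.11 FPKM in MBT2 and 0.648 FPKM in MB49 (adjusted p = 0.147), and passed only without MB49 replicate 2 (0.54, adjusted p = 0.0482). Uroplakins, the defining markers of urothelium, were thus at or near 0 in both lines, so on these markers the data do not bear out the urothelial label.

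Of 20 luminal urothelial genes listed, 12 were tested, with 9 lower in MBT2, 1 higher and a median difference of -1.62. Erbb3, a receptor of the EGF receptor family that binds neuregulins, was at 2.25, 2.36 and 2.13 FPKM in MBT2 tumours and at 63.8, 38.8 and 72.3 FPKM in MB49 tumours. No library of one line came near the other (-4.14 ± 0.22, adjusted p = 7.04e-06). Foxa1, a pioneer factor of luminal cells, was the one called the other way, at 4.97 ± 0.586 FPKM in MBT2 and 2.82 ± 0.601 FPKM in MB49 (SD, n = 3 each, difference 0.65 ± 0.16, adjusted p = 0.0128). Among the genes lower in MBT2, Gata3 averaged 0.789 FPKM in MBT2 and 3.71 FPKM in MB49, Krt19, a simple-epithelium keratin, 0.751 FPKM in MBT2 and 7.69 FPKM in MB49, and Erbb2, which encodes HER2, 17.3 FPKM in MBT2 and 52.1 FPKM in MB49.

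Basal and squamous genes were split. Of 21 listed, 10 were tested, 6 lower and 2 higher in MBT2, with a median of -1.30, and the 2 became 1 without MBT2 replicate 3, MB49 replicate 1 or MB49 replicate 3. The basal keratin genes were not prominent in MBT2: Krt5 averaged 0.14 FPKM in MBT2 and 0.469 FPKM in MB49 and was not tested. Krt14 had 1.61, 2.3 and 4.97 FPKM in MBT2 tumours and 32.4, 39.7 and 18.8 FPKM in MB49 tumours, without overlap (-3.01 ± 0.36, adjusted p = 0.000379). Itgb4, the hemidesmosome integrin subunit, averaged 22 FPKM in MBT2 and 59.9 FPKM in MB49 (-1.45 ± 0.24, adjusted p = 0.00205). Cd44, a hyaluronan receptor, averaged 64.1 FPKM in MBT2, the lowest of the 11 models of the series, and 169 FPKM in MB49, the highest (-1.40 ± 0.17, adjusted p = 0.000376). Against this direction, Lgals7, which encodes galectin-7 of stratified epithelia, had 89.1, 63.8 and 68.8 FPKM in MBT2 tumours and 4.12, 0.501 and 0.787 FPKM in MB49 tumours (4.95 ± 0.43, adjusted p = 7.72e-05). Of 19 genes of epithelial adhesion and tight junctions only 7 were tested, 4 of them lower in MBT2 and 0 higher, with a median of -1.82, and 1 was higher without MB49 replicate 2. The tight junction gene Cldn3 had 0, 0.116 and 0.0786 FPKM in MBT2 tumours, against 19.7, 27.4 and 20.3 FPKM in MB49 tumours (-4.45 ± 0.16, adjusted p = 1.22e-06). Spint1, a membrane protease inhibitor of epithelia, averaged 0.224 FPKM in MBT2 and 16.3 FPKM in MB49 (-3.82 ± 0.15, adjusted p = 1.94e-06).

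Krt8 and Krt18 are neighbours on chromosome 15 and differed in the same direction, so the 250 bases before the start of each are shown (RefSeq, GRCm38.p6). Capitals mark CACCTG, which with its other strand CAGGTG is an E-box that the SNAIL and ZEB factors bind. The Krt18 window is chr15:102027966-102028215 on the plus strand, with the match starting at -214 from the start of the gene, and the Krt8 window is chr15:102004343-102004592 on the minus strand, with the match starting at -111.
Krt18: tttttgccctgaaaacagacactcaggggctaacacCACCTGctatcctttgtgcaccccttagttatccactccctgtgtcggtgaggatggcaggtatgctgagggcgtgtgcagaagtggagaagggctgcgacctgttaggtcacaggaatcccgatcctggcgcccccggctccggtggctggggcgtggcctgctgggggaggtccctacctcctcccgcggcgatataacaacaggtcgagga
Krt8: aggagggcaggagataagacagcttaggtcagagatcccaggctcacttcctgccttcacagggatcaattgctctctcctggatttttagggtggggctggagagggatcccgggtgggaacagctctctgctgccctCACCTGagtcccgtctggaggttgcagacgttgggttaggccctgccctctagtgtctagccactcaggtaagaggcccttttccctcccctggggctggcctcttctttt
Each window holds 1 match, counting both strands, as a description and not a site. The motif was present in 5657 of 32851 promoter windows of that length in the table (17.2%).

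Mesenchymal genes were higher in MBT2 as a group. Of 17 listed, 16 were tested, with 12 higher in MBT2, 1 lower and a median of 1.32. Cdh2, which encodes N-cadherin, had 36.6, 35.4 and 31.6 FPKM in MBT2 tumours, against 0.269, 0.324 and 0.17 FPKM in MB49 tumours. MBT2 had the highest mean of 11 models and MB49 the tenth, and the difference was 4.82 ± 0.12 (adjusted p = 3.37e-07). Twist1, a factor that drives mesenchymal programmes in development, had 53.4, 44.4 and 50.2 FPKM in MBT2 tumours and 1.34, 2.52 and 1.21 FPKM in MB49 tumours (4.25 ± 0.19, adjusted p = 3.27e-06). The gelatinase gene Mmp2 averaged 56.2 ± 24.3 FPKM in MBT2 and 11.8 ± 6.05 FPKM in MB49 (SD, n = 3 each, difference 2.15 ± 0.42, adjusted p = 0.00412). The factors did not all move: Snai1 averaged 21.2 FPKM in MBT2 and 7.54 FPKM in MB49 (1.38, adjusted p = 7.85e-05), while Zeb1 averaged 13.9 FPKM in MBT2 and 13 FPKM in MB49 (adjusted p = 0.731). S100a4, a calcium-binding protein of motile cells, averaged 2901 FPKM in MBT2 and 1359 FPKM in MB49 (1.09 ± 0.14, adjusted p = 0.000598). Vim, the mesenchymal intermediate filament, was abundant in both lines, with 1890, 1708 and 2046 FPKM in MBT2 tumours and 1629, 1702 and 1541 FPKM in MB49 tumours (0.21 ± 0.13, adjusted p = 0.23), a gap that did not pass although the groups did not overlap. The single gene lower in MBT2, Fn1 for fibronectin, averaged 39.1 FPKM in MBT2 and 91.4 FPKM in MB49 (-1.34, adjusted p = 0.0199), and was not called without MBT2 replicate 2 (-1.26, adjusted p = 0.064) or MB49 replicate 1 (-1.17, adjusted p = 0.0633). Fibroblasts share most of this list. Of their 13 markers, given below, 5 were also higher in MBT2, 1 was lower and 7 were not called. The part of fibroblasts in these values was not tested.

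**Figure D2:**
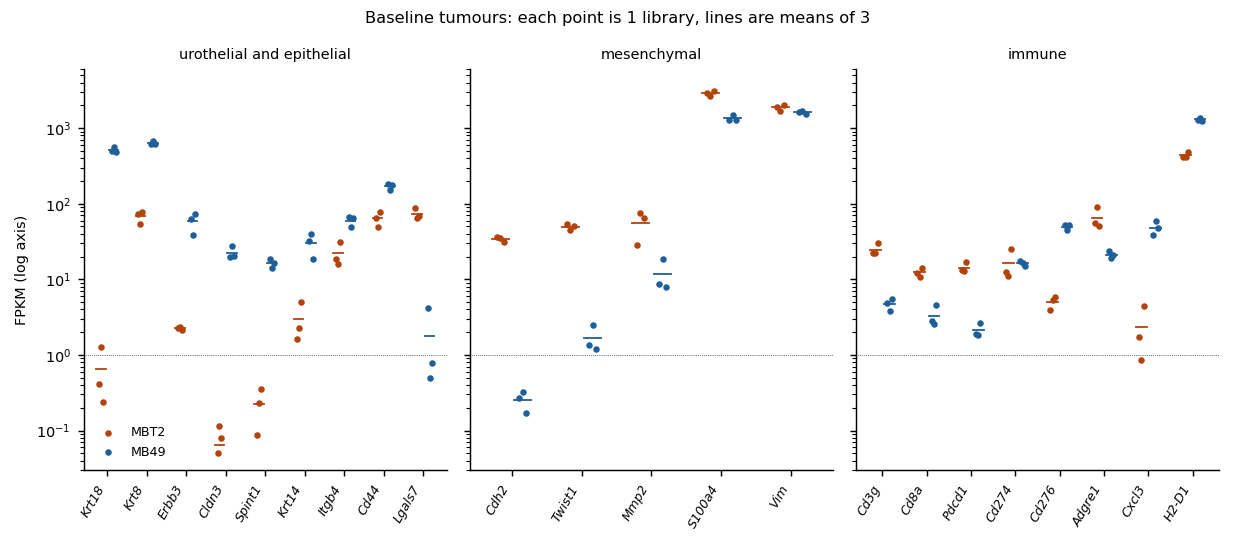
FPKM (log axis) of named genes in the baseline tumours, with MBT2 left of MB49 for each gene, 1 point per library, a short line at the mean of 3 and values under 0.05 drawn at 0.05. The MBT2 points lie far below the MB49 points for Krt18, Cldn3 and Spint1 and far above them for Cdh2 and Twist1, while the Vim points lie close together, and among immune genes Cd3g, Cd8a and Pdcd1 lie higher and Cd276 and Cxcl3 lower in MBT2.

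Hox genes encode the homeodomain factors that mark position along the body axis, and cell lines tend to keep the combination of their tissue of origin. MBT2 had more of them, at higher levels. Of 34 listed, 26 were tested, 19 of them higher in MBT2 and 1 lower, with a median of 1.32. Cluster C separated the lines most evenly: all 7 of its listed genes were tested and all 7 were higher in MBT2, with summed means of 53.4 FPKM in MBT2 and 1.97 FPKM in MB49. In cluster A 3 of 6 genes tested were higher in MBT2, in cluster B 6 of 9 and in cluster D 3 of 4. Hoxc10 had 31.2, 28.1 and 28.6 FPKM in MBT2 tumours, against 0.485, 0.792 and 0.337 FPKM in MB49 tumours (4.31 ± 0.15, adjusted p = 9.48e-07). Hoxd9 had 24.6, 20 and 23.2 FPKM in MBT2 tumours, against 0.521, 0.597 and 0.347 FPKM in MB49 tumours (3.99 ± 0.14, adjusted p = 1.04e-06). For both genes MBT2 had the highest mean of the 11 models.

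Hoxb13, a posterior gene best known from prostate and hindgut, was the only Hox gene lower in MBT2. It was listed at 0 in all 3 MBT2 tumours and had 4.05, 5.25 and 4.32 FPKM in MB49 tumours, the highest mean of 11 models (adjusted p = 7.14e-06). Hoxc13 and Hoxa11 showed the reverse, listed at 0 in all 3 MB49 tumours, with 4.71, 5.49 and 3.9 FPKM of Hoxc13 and 6.32, 4.86 and 9.34 FPKM of Hoxa11 in MBT2 tumours. With each library left out in turn, 18 to 19 Hox genes were higher in MBT2 and 1 lower. In isotype tumours 20 of 25 genes tested were higher in MBT2 and 1 lower.

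**Figure D3:**
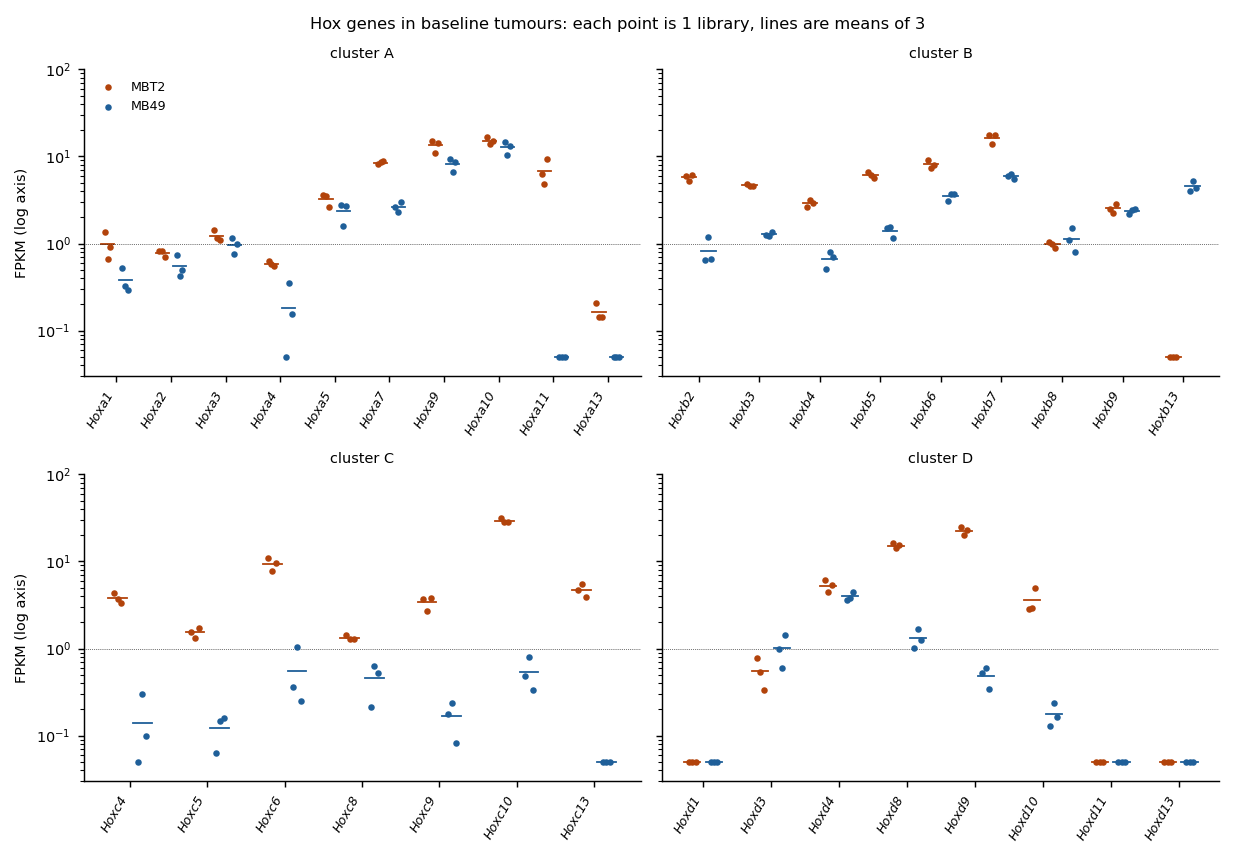
FPKM (log axis) of the 34 listed Hox genes by cluster in baseline tumours, with MBT2 left of MB49 for each gene, 1 point per library, a line at the mean of 3 and values under 0.05 drawn at 0.05. All cluster C genes lie higher in MBT2, and Hoxb13 in cluster B lies higher in MB49.

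The Cdkn2a locus and the genes that p53 activates differed sharply. Cdkn2a encodes the cell cycle inhibitor p16INK4a and, in another frame, ARF, which restrains MDM2 and so stabilises p53. It had 59.9, 52.4 and 54.3 FPKM in MBT2 tumours, against 0.362, 0.591 and 0.232 FPKM in MB49 tumours (5.35 ± 0.14, adjusted p = 3.37e-07), without overlap. The deposited values are per gene, so the transcripts of p16INK4a and ARF cannot be told apart. Its neighbour Cdkn2b, which encodes p15INK4b, averaged 9.87 FPKM in MBT2 and 0.375 FPKM in MB49 (2.98 ± 0.14, adjusted p = 3.82e-06), and Mtap, next to both and often lost with them in human tumours, averaged 52.1 FPKM in MBT2 and 126 FPKM in MB49 (-1.24, adjusted p = 0.00102). Both Cdkn2a and Cdkn2b were thus close to 0 in MB49 where Mtap was not.

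Trp53 itself was higher in MBT2, at 154, 123 and 141 FPKM, than in MB49, at 99.9, 93.6 and 105 FPKM (0.48 ± 0.11, adjusted p = 0.00806), and MBT2 had the highest mean of the 11 models. All 15 genes of the list of p53 targets and the Cdkn2a locus were tested, with 10 lower in MBT2, 4 higher and a median of -0.775. This count mixes kinds: among the higher genes Cdkn2a and Cdkn2b belong to the locus and Trp53 is the gene of p53 itself, and among the lower ones Mtap belongs to the locus. The targets Cdkn1a, Zmat3, Aen, Ccng1, Sesn2 and Bax were called lower in all 6 fits with 1 library left out. The target Bbc3 was not called. Trp53inp1, a stress protein that p53 induces, averaged 1.07 FPKM in MBT2 and 6.53 FPKM in MB49 (-1.88 ± 0.15, adjusted p = 5.28e-05). Eda2r, a p53-inducible death receptor, averaged 1.02 FPKM in MBT2 and 5.62 FPKM in MB49 (-1.71 ± 0.14, adjusted p = 6.81e-05). Mdm2, the ubiquitin ligase of p53, averaged 19.2 FPKM in MBT2 and 47.8 FPKM in MB49 (-1.26, adjusted p = 0.000675). Phlda3, a p53-induced inhibitor of AKT, went against these, with 49.2, 44.7 and 49.5 FPKM in MBT2 tumours and 3.94, 8.79 and 3.48 FPKM in MB49 tumours (3.02 ± 0.28, adjusted p = 0.000101). MB49 had the lowest mean of the 11 models. Of 18 cell cycle genes tested, 5 were lower in MBT2, 2 higher and 11 not called, with a median of -0.242. Cdk1, the mitotic kinase, averaged 82.6 FPKM in MBT2 and 131 FPKM in MB49 (-0.66 ± 0.12, adjusted p = 0.0028). Without MB49 replicate 1 or MB49 replicate 3 the 5 became 3, and the 2 became 0 or 1 without any single library.

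Ligands of the EGF receptor family were exchanged between the lines. Of 20 listed ligands and receptors of the EGF and FGF families, 12 were tested, 6 lower and 3 higher in MBT2, with a median of -0.998. Tgfa, which encodes TGF-alpha, had 0.0552, 0.0323 and 0.0656 FPKM in MBT2 tumours, against 11.7, 11.9 and 12 FPKM in MB49 tumours (-3.62 ± 0.11, adjusted p = 7.19e-07). Ereg, which encodes epiregulin, had 27.1, 15.1 and 28.2 FPKM in MBT2 tumours, against 2.22, 2.9 and 2.45 FPKM in MB49 tumours (2.75 ± 0.24, adjusted p = 7.19e-05). No library overlapped for either ligand, and their receptor gene Egfr averaged 16.4 FPKM in MBT2 and 18.4 FPKM in MB49 with overlapping groups (adjusted p = 0.832). Fgf7, a mesenchymal ligand for epithelial FGF receptors, averaged 5.85 FPKM in MBT2 and 0.398 FPKM in MB49 (2.29 ± 0.27, adjusted p = 0.000328).

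Genes that ERK signalling induces did not move as one. All 14 were tested, 6 lower and 3 higher in MBT2, with a median of -0.406. Etv4, an ETS factor, had 0.476, 0.775 and 1.03 FPKM in MBT2 tumours, the lowest of 11 models, against 41.8, 49.1 and 47.9 FPKM in MB49 tumours (-4.76 ± 0.15, adjusted p = 7.40e-07). Spry1, a feedback inhibitor of receptor kinases, averaged 1.03 FPKM in MBT2 and 20.6 FPKM in MB49 (-3.32 ± 0.33, adjusted p = 0.000143). The ERK phosphatase gene Dusp6 averaged 80.3 FPKM in MBT2 and 108 FPKM in MB49 (-0.42 ± 0.10, adjusted p = 0.0103). Egr1, an early growth response factor, had 36.5, 30.9 and 43.9 FPKM in MBT2 tumours, against 5.25, 5.71 and 3.61 FPKM in MB49 tumours (2.71 ± 0.19, adjusted p = 2.43e-05), and so lay on the other side.

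Wnt ligands also differed by member. Of 19 Wnt pathway genes, 10 were tested, 4 higher and 1 lower in MBT2, with a median of 0.459. Wnt7b, a ligand of epithelia, was at 0, 0.0156 and 0.0158 FPKM in MBT2 tumours and at 36.9, 20.3 and 31.9 FPKM in MB49 tumours (-4.89 ± 0.21, adjusted p = 2.97e-06). Wnt10b, a ligand of the beta-catenin pathway, was at 33.7, 28.2 and 30 FPKM in MBT2 tumours and at 0.217, 0.209 and 0.195 FPKM in MB49 tumours (4.71 ± 0.12, adjusted p = 3.44e-07). MBT2 had the highest Wnt10b and the lowest Wnt7b mean of the 11 models. Dkk2, a secreted modulator of the Wnt coreceptor, averaged 21.4 FPKM in MBT2 and 0.082 FPKM in MB49 (4.36 ± 0.17, adjusted p = 1.58e-06). Of 9 hedgehog genes only 4 were tested: Hhip, the decoy receptor, averaged 0.00543 FPKM in MBT2 and 3.4 FPKM in MB49 (-2.13 ± 0.12, adjusted p = 8.16e-06), and Gli3, a transcription factor of the pathway, 5.12 FPKM in MBT2 and 0.118 FPKM in MB49 (2.44 ± 0.15, adjusted p = 1.47e-05). In the TGF-beta list 3 of 14 genes were higher in MBT2 and 4 lower, with a median of -0.194. The receptor genes Tgfbr2 and Tgfbr3 were among the higher ones, at means of 73.7 and 27.1 FPKM in MBT2 and 35.3 and 10.1 FPKM in MB49, and Smad3, which carries the signal to the nucleus, was lower, at 9.53 FPKM in MBT2 and 26.4 FPKM in MB49 (-1.36 ± 0.20, adjusted p = 0.00105).

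Of the genes of hypoxia and glycolysis all 14 were tested, with 7 lower in MBT2, 1 higher and 6 not called, and a median of -0.611. Car9, the membrane carbonic anhydrase that HIF-1 induces, had 2.03, 1.59 and 4.04 FPKM in MBT2 tumours and 48, 50.1 and 39.9 FPKM in MB49 tumours (-3.78 ± 0.24, adjusted p = 1.81e-05). Egln3, a prolyl hydroxylase of HIF, averaged 5.18 FPKM in MBT2 and 65.7 FPKM in MB49 (-3.59 ± 0.40, adjusted p = 0.000259). Lactate dehydrogenase A, Ldha, averaged 683 FPKM in MBT2 and 1250 FPKM in MB49 (-0.90 ± 0.20, adjusted p = 0.00703). Vegfa, the growth factor for vessels, was higher in MBT2, with 83.6, 61.9 and 92.1 FPKM, than in MB49, with 32.5, 42.5 and 31.6 FPKM (1.13 ± 0.18, adjusted p = 0.00143). Among 14 NRF2 targets, 5 were lower and 4 higher in MBT2, with a median of -0.261, and the 5 became 2 without MB49 replicate 3 and 3 without any single MBT2 library. Aldh3a1, an aldehyde dehydrogenase, averaged 0.21 FPKM in MBT2 and 28.8 FPKM in MB49 (-4.57 ± 0.24, adjusted p = 7.14e-06), whereas Nqo1, a quinone reductase, averaged 3.91 FPKM in MBT2 and 0.705 FPKM in MB49 (1.49 ± 0.22, adjusted p = 0.00102).

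T-cell transcripts were higher in MBT2 tumours before treatment. Of 16 pan T-cell genes listed, 15 were tested, 11 of them higher in MBT2 and 0 lower, with a median of 1.06, and of 14 CD8 and cytotoxic genes 10 were higher and 0 lower, with a median of 1.05. Cd3g, a subunit of the T-cell receptor complex, had 22.1, 22.2 and 29.9 FPKM in MBT2 tumours, against 4.89, 3.87 and 5.51 FPKM in MB49 tumours (2.16 ± 0.17, adjusted p = 4.46e-05). Cd8a, the coreceptor of cytotoxic T cells, had 12.1, 10.8 and 14.1 FPKM in MBT2 tumours, against 2.78, 2.53 and 4.52 FPKM in MB49 tumours (1.66 ± 0.20, adjusted p = 0.000355). Both genes had the highest mean of the 11 models in MBT2, and no library of the lines overlapped. Cxcr6, a chemokine receptor of effector T cells, averaged 12.7 FPKM in MBT2 and 1.97 FPKM in MB49 (2.23 ± 0.20, adjusted p = 8.96e-05), and Nkg7, a protein of cytotoxic granules, 38.7 FPKM in MBT2 and 11.2 FPKM in MB49 (1.70 ± 0.15, adjusted p = 8.06e-05). Gzma, which encodes granzyme A, had 14.3, 63.8 and 23.4 FPKM in MBT2 tumours and 40.8, 18.1 and 14.5 FPKM in MB49 tumours, and these overlapped (0.32 ± 0.56, adjusted p = 0.656). With each library left out in turn, 10 to 12 pan T-cell genes and 9 to 10 CD8 and cytotoxic genes were higher in MBT2. In isotype tumours 8 of 13 and 9 of 14 were higher, with medians of 0.77 and 0.586. Of 10 genes of CD4 and regulatory T cells 6 were tested, 2 higher and 4 not called, and the 2, Icos and Tnfrsf18, became 0 without MB49 replicate 3 and 1 without MB49 replicate 1 or MB49 replicate 2.

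The receptor that muDX400 binds and its ligand behaved differently. Pdcd1, which encodes PD-1, had 13.1, 13 and 16.7 FPKM in MBT2 tumours, the highest of the 11 models, against 1.87, 1.81 and 2.64 FPKM in MB49 tumours (2.30 ± 0.16, adjusted p = 2.81e-05). Its difference was 2.10 in isotype tumours (adjusted p = 5.51e-05). Cd274, which encodes the ligand PD-L1, had 12.7, 11.2 and 25 FPKM in MBT2 tumours and 17.6, 16.4 and 15.1 FPKM in MB49 tumours, with overlap (-0.09 ± 0.27, adjusted p = 0.805). Without MBT2 replicate 3 it was lower in MBT2 (-0.42, adjusted p = 0.0329), and in isotype tumours it averaged 12.3 FPKM in MBT2 and 19.3 FPKM in MB49 (-0.60, adjusted p = 0.0019). Cd276, which encodes the B7 family ligand B7-H3, had 3.91, 5.25 and 5.82 FPKM in MBT2 tumours, the lowest of 11 models, and 52.1, 45.6 and 52.3 FPKM in MB49 tumours, the highest (-3.10 ± 0.14, adjusted p = 3.72e-06). Tox, a factor of persistently stimulated T cells, averaged 2.32 FPKM in MBT2 and 0.388 FPKM in MB49 (1.27 ± 0.17, adjusted p = 0.000636). Of the 14 checkpoint genes tested 3 were higher and 3 lower in MBT2. With 1 library left out, 2 to 5 were higher, 5 of them without MBT2 replicate 1, and 2 to 4 were lower.

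The 18-gene T-cell-inflamed signature, which mixes lymphocyte genes with antigen presentation, had 7 genes higher in MBT2, 4 lower and a median of 0.102. Its mean log2(FPKM + 1) was 4.67 ± 0.285 in MBT2 and 4.59 ± 0.0662 in MB49 (SD, n = 3 each), a gap smaller than the spread in MBT2. The 4 lower genes became 2 without any single MB49 library. The median was -0.143 without MBT2 replicate 3 and -0.0396 without MB49 replicate 3. In isotype tumours the mean was 4.39 ± 0.275 in MBT2 and 4.61 ± 0.22 in MB49 (SD, n = 5 each). The genes lower in MBT2 included Cd276 and Ido1, the tryptophan-degrading enzyme, which averaged 1.51 FPKM in MBT2 and 10.4 FPKM in MB49 (-2.23 ± 0.25, adjusted p = 0.000291).

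**Figure D4:**
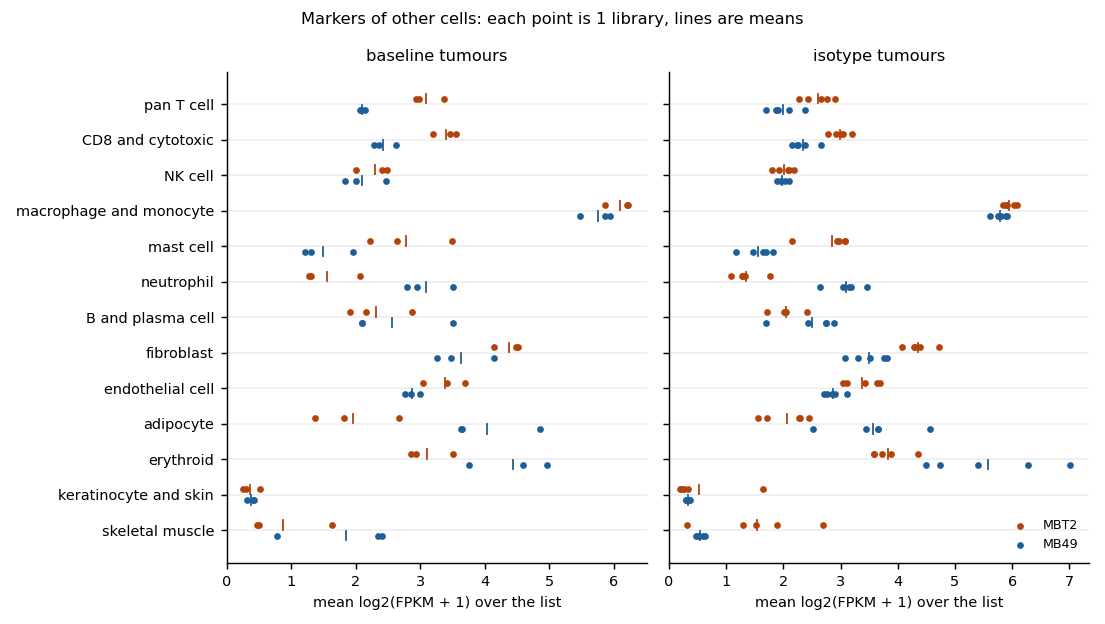
Mean log2(FPKM + 1) over each list of cell type markers in baseline tumours (left panel) and isotype tumours (right panel), with MBT2 drawn above MB49, 1 point per library and a tick at the mean. At baseline the pan T-cell, CD8 and mast cell lists lie higher in MBT2 in every library, and the neutrophil and adipocyte lists lie higher in MB49 in every library.

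Natural killer cell genes were mostly higher in MBT2. Of 11 listed 10 were tested, 6 higher and 1 lower, with a median of 0.728. The mean over all 11 was 2.01 to 2.49 in MBT2 and 1.83 to 2.47 in MB49 on the log2(FPKM + 1) scale, so the lines overlapped. Ncr1, the activating receptor NKp46, had 5.92, 11.5 and 9.62 FPKM in MBT2 tumours and 2.38, 0.936 and 0.703 FPKM in MB49 tumours (2.12 ± 0.31, adjusted p = 0.00106). Klra4, a receptor of the Ly49 family, was the one lower, listed at 0, 0 and 0.0398 FPKM in MBT2 tumours and 25.7, 36.8 and 21 FPKM in MB49 tumours (-4.79 ± 0.20, adjusted p = 2.55e-06). The Ly49 genes are near copies of each other whose number varies between mouse strains, so a value for a single member is uncertain. In isotype tumours 6 natural killer cell genes were higher in MBT2 and 2 lower, with a median of 0.716.

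Among myeloid cells most mast cell genes tested were higher in MBT2, most neutrophil genes tested were lower, and macrophage genes were divided between higher and not called. All 19 macrophage and monocyte genes were tested, 9 higher, 1 lower and 9 not called, with a median of 0.654, and the 1 became 3 without MBT2 replicate 3 and 0 without any single MB49 library. The list mean was 5.86 to 6.22 in MBT2 and 5.47 to 5.94 in MB49 on the log2(FPKM + 1) scale, so the lines overlapped, and in isotype tumours 12 were higher and 6 lower. Adgre1, the macrophage marker F4/80, had 56.2, 89.4 and 50.2 FPKM in MBT2 tumours, the highest of 11 models, against 23.7, 19.4 and 20.7 FPKM in MB49 tumours (1.53 ± 0.21, adjusted p = 0.000732). Itgam, which encodes CD11b, averaged 48.9 FPKM in MBT2 and 17.7 FPKM in MB49 (1.42 ± 0.14, adjusted p = 0.000171), although CD11b is carried by neutrophils too. Of 15 neutrophil genes 11 were tested, 7 lower in MBT2 and 0 higher, with a median of -1.62. Cxcl3, a neutrophil-attracting chemokine, had 1.75, 0.865 and 4.5 FPKM in MBT2 tumours and 38.1, 59 and 47.1 FPKM in MB49 tumours, the highest mean of 11 models (-3.99 ± 0.37, adjusted p = 0.000109). Cxcl3 draws neutrophils and does not mark them. Retnlg, a resistin-like protein of neutrophils, had 0.169, 0 and 0.501 FPKM in MBT2 tumours and 12, 35.6 and 10.7 FPKM in MB49 tumours (-3.87 ± 0.42, adjusted p = 0.000236). S100a8, S100a9 and Cxcr2 were called lower in all 6 fits with 1 library left out, while Csf3r and Mmp8 were not called. The summed level of the neutrophil list was 35.9 to 89.7 FPKM in MBT2 and 263 to 394 FPKM in MB49, and in isotype tumours all 10 genes tested were lower in MBT2.

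Mast cell genes had 6 of 7 tested higher in MBT2 and 0 lower, with a median of 1.74, but only 3 higher without MB49 replicate 1 or MB49 replicate 3, and 1 lower without MBT2 replicate 3. Tpsab1, a mast cell tryptase, had 37.1, 18.2 and 94.6 FPKM in MBT2 tumours and 0.292, 0.765 and 0.376 FPKM in MB49 tumours (4.81 ± 0.51, adjusted p = 0.000216). The library with the highest value was MBT2 replicate 3, and even the lowest MBT2 library lay far above the MB49 tumours. The host strain and the line cannot be told apart in this value, and the other mast cell genes were less steady. Of 6 fits with 1 library left out, Tpsab1, Cpa3 and Kit were called higher in 6, Mcpt4 in 4, and Tpsb2 and Cma1 in 2. Hdc was not called with all libraries. Of 12 dendritic cell genes 10 were tested, 4 higher and 2 lower in MBT2. Xcr1, the chemokine receptor of cross-presenting dendritic cells, averaged 3.16 FPKM in MBT2 and 0.261 FPKM in MB49 (1.55 ± 0.37, adjusted p = 0.011), Zbtb46, a factor of conventional dendritic cells, 4.29 FPKM in MBT2 and 0.752 FPKM in MB49 (1.57 ± 0.20, adjusted p = 0.000568), and Flt3, the receptor of their growth factor, 1.57 FPKM in MBT2 and 14.8 FPKM in MB49 (-2.65 ± 0.24, adjusted p = 9.01e-05). Of 7 B and plasma cell genes tested limma called 0, with 1 at an unadjusted p under 0.05, and 1 was higher without MB49 replicate 2. Igkc, the kappa light chain, averaged 78.4 FPKM in MBT2 and 267 FPKM in MB49 (adjusted p = 0.274).

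Chemokines that draw monocytes were among the higher cytokine genes, while those that draw T cells did not share a direction. Of 21 inflammatory genes 15 were tested, 3 higher and 6 lower in MBT2, with a median of -0.48, and all 3 higher ones were chemokines. Ccl2, which recruits monocytes, had 183, 102 and 186 FPKM in MBT2 tumours and 44.2, 62 and 36.8 FPKM in MB49 tumours (1.68 ± 0.27, adjusted p = 0.00171). Ccl7 averaged 113 FPKM in MBT2 and 34.1 FPKM in MB49 (1.73 ± 0.31, adjusted p = 0.00291), and Ccl5, made by T cells and others, 56.3 FPKM in MBT2 and 21.2 FPKM in MB49 (1.38 ± 0.20, adjusted p = 0.00106). Cxcl10, which draws T cells, was called lower in MBT2, at -1.16 to -0.66 over the 6 fits with 1 library left out. Cxcl9 and Cxcl11 were not called. Il34, a ligand of the macrophage growth factor receptor, was lower, at 18.5 FPKM in MBT2 and 51.1 FPKM in MB49 (-1.43 ± 0.12, adjusted p = 6.38e-05). Ccl24, an eotaxin, was among the largest differences of all genes, with 0.445, 0.609 and 0.794 FPKM in MBT2 tumours and 132, 210 and 69.8 FPKM in MB49 tumours, the highest mean of 11 models (-6.29 ± 0.35, adjusted p = 9.36e-06).

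Class I presentation genes were not shifted one way, and class II genes were more often lower than higher in MBT2. All 15 class I genes were tested, 4 higher and 4 lower in MBT2, with a median of 0.175, and the 4 lower became 2 without MB49 replicate 3. H2-D1, a classical class I heavy chain, had 410, 418 and 477 FPKM in MBT2 tumours and 1295, 1383 and 1251 FPKM in MB49 tumours (-1.59 ± 0.11, adjusted p = 3.04e-05). H2-K1, the other heavy chain, averaged 964 ± 121 FPKM in MBT2 and 1534 ± 74.7 FPKM in MB49 (SD, n = 3 each, difference -0.67 ± 0.13, adjusted p = 0.00466). These genes differ in sequence between host strains and resemble each other, so that values per gene are uncertain. Tap2, a subunit of the peptide transporter, had 201, 204 and 242 FPKM in MBT2 tumours and 112, 92.5 and 104 FPKM in MB49 tumours (1.06 ± 0.12, adjusted p = 0.000237), and Calr, a chaperone of class I assembly, averaged 643 FPKM in MBT2 and 425 FPKM in MB49 (0.60 ± 0.10, adjusted p = 0.00199). Of 10 class II genes tested 6 were lower in MBT2 and 1 higher, with a median of -0.734, and 3 were lower without MB49 replicate 1 and 2 higher without MBT2 replicate 1. In isotype tumours 7 class II genes were lower and 1 higher, with a median of -1.1. H2-Ab1, a class II beta chain, had 58.7, 138 and 138 FPKM in MBT2 tumours and 387, 366 and 340 FPKM in MB49 tumours (-1.80 ± 0.31, adjusted p = 0.00239). Of 6 fits with 1 library left out, H2-Ab1, H2-DMb1 and H2-Oa were called lower in 6, H2-DMa in 5, H2-Eb1 in 3 and H2-Aa in 2. The caveat on sequence differences between host strains holds for the class II chain genes too, so their values are uncertain. Cd74, the invariant chain of class II, averaged 939 FPKM in MBT2 and 986 FPKM in MB49 with overlap (-0.13 ± 0.26, adjusted p = 0.695). Ciita and H2-DMb2 were not called either.

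Interferon targets were more often higher than lower in MBT2. Of 25 interferon-gamma response genes 11 were higher and 5 lower, with a median of 0.422, and of 18 type I interferon response genes 10 were higher and 0 lower, with a median of 0.625. In isotype tumours the interferon-gamma list had 11 higher and 7 lower, with a median of 0.115, and the type I list 9 higher and 3 lower, with a median of 0.233. Gbp10, a guanylate-binding protein, averaged 6.28 FPKM in MBT2 and 1.25 FPKM in MB49 (1.68 ± 0.18, adjusted p = 0.000199), and Gbp6, of the same family of near copies, 2.63 FPKM in MBT2 and 17.3 FPKM in MB49 (-2.33 ± 0.14, adjusted p = 1.16e-05), so both are uncertain. Tgtp2, an interferon-induced GTPase, averaged 38.4 FPKM in MBT2 and 11.8 FPKM in MB49 (1.64 ± 0.20, adjusted p = 0.000478). Irf1, an early factor of the response, averaged 176 ± 30.5 FPKM in MBT2 and 148 ± 10.6 FPKM in MB49 (SD, n = 3 each, adjusted p = 0.178). Ifih1, the RNA sensor MDA5, had 8.56, 11.5 and 7.08 FPKM in MBT2 tumours and 2.21, 2.13 and 1.75 FPKM in MB49 tumours (1.71 ± 0.18, adjusted p = 0.000208), and Ifi44, an interferon-induced protein, averaged 14.7 FPKM in MBT2 and 4.07 FPKM in MB49 (1.60 ± 0.22, adjusted p = 0.000754).

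Fibroblast and vessel genes were called higher in MBT2 more often than lower, while collagen and matrix genes were called in both directions. Of 13 fibroblast genes 5 were higher and 1 lower, with a median of 0.677. Pdgfra, a growth factor receptor of fibroblasts, had 34.5, 47.7 and 25.5 FPKM in MBT2 tumours and 6.33, 4.6 and 5.98 FPKM in MB49 tumours (2.44 ± 0.22, adjusted p = 0.000103). Lum, the matrix proteoglycan lumican, averaged 39.8 ± 26 FPKM in MBT2 and 3.93 ± 2.49 FPKM in MB49 (SD, n = 3 each, difference 2.97 ± 0.48, adjusted p = 0.00176), while Postn, the matrix protein periostin, averaged 16 FPKM in MBT2 and 54.5 FPKM in MB49 (-1.65 ± 0.31, adjusted p = 0.00351). The summed fibroblast list ran from 557 to 717 FPKM in MBT2 and from 200 to 332 FPKM in MB49. Of 20 collagen and matrix genes tested 3 were higher and 5 lower in MBT2, with a median of 0.139 that became -0.339 without MBT2 replicate 3 and -0.0838 without MB49 replicate 3. With 1 library left out, 2 to 5 collagen and matrix genes were higher, 5 of them without MB49 replicate 2, and 4 to 6 were lower. Col18a1, the basement membrane collagen that yields endostatin, had 11.3, 13.7 and 15.9 FPKM in MBT2 tumours and 479, 364 and 481 FPKM in MB49 tumours, the highest mean of 11 models (-4.92 ± 0.16, adjusted p = 7.58e-07). Col7a1, the anchoring fibril collagen of stratified epithelia, averaged 1.66 FPKM in MBT2 and 36 FPKM in MB49 (-3.77 ± 0.32, adjusted p = 7.07e-05), and Col5a1, a fibrillar collagen, 112 FPKM in MBT2 and 20 FPKM in MB49 (2.43 ± 0.16, adjusted p = 1.81e-05).

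Of 12 endothelial genes 11 were tested, 7 higher and 1 lower in MBT2, with a median of 0.549, and 4 were higher without MBT2 replicate 2 or MB49 replicate 3. Kdr, the main VEGF receptor, had 5.42, 8.14 and 6.08 FPKM in MBT2 tumours and 1.98, 1.97 and 1.97 FPKM in MB49 tumours (1.33 ± 0.16, adjusted p = 0.000372). Vwf, von Willebrand factor, was the one lower, at 1.18 FPKM in MBT2 and 4.43 FPKM in MB49 (-1.34 ± 0.25, adjusted p = 0.0036). Among 17 proteases and inhibitors tested 6 were lower and 2 higher in MBT2, and 3 were lower without MBT2 replicate 1. Mmp13, a collagenase, averaged 6.19 FPKM in MBT2 and 51.7 FPKM in MB49 (-3.06 ± 0.45, adjusted p = 0.0011), and Mmp9, a gelatinase that neutrophils carry, 19.9 FPKM in MBT2 and 97 FPKM in MB49 (-2.32 ± 0.37, adjusted p = 0.00167).

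Markers of fat and blood differed between the lines, and those of muscle and skin did not do so steadily. Of 11 adipocyte genes 9 were tested, 8 lower in MBT2 and 0 higher, with a median of -2.73. Cfd, the fat-cell protease adipsin, had 1.14, 25.9 and 7.8 FPKM in MBT2 tumours and 87.2, 355 and 111 FPKM in MB49 tumours (-4.25 ± 0.90, adjusted p = 0.00619). The adipocyte list summed to 54.5 to 130 FPKM in MBT2 and 280 to 860 FPKM in MB49. Of 6 erythroid genes tested 4 were lower in MBT2 and 1 higher, and Hba-a2, an alpha globin, had 30.3, 59.5 and 19.5 FPKM in MBT2 tumours and 564, 182 and 410 FPKM in MB49 tumours (-3.37 ± 0.49, adjusted p = 0.00105). Hba-a1, a near copy of Hba-a2, was not called, so values of single globin genes are uncertain. Of 6 fits with 1 library left out, Hba-a2, Hbb-bs and Hbb-bt were called lower in 6 and Alas2 in 2. Of 6 skeletal muscle genes tested 1 was lower in MBT2, 6 without MB49 replicate 3, 2 without MBT2 replicate 1 and 0 without any other single library. The sum over all 12 listed muscle genes ran from 8.37 to 42.2 FPKM in MBT2 and from 12.6 to 95.3 FPKM in MB49. The muscle list mean on the log2(FPKM + 1) scale was 0.865 in MBT2 and 1.85 in MB49 at baseline, and 1.54 in MBT2 and 0.545 in MB49 in isotype tumours, so its direction turned. Keratinocyte genes summed to 6.62 to 23.3 FPKM in MBT2 and 7.01 to 9.8 FPKM in MB49, and only 2 of 14 reached the filter. The part of fat, blood, muscle or skin in the other results was not tested.

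Apart from the lists, the 30 largest differences whose groups did not overlap were led by genes close to absent in one line. Emp2, a membrane protein of epithelia, had 0.741, 0.837 and 1.26 FPKM in MBT2 tumours and 175, 86.6 and 181 FPKM in MB49 tumours (-6.19 ± 0.28, adjusted p = 3.30e-06). Apcdd1, an inhibitor of Wnt signalling, averaged 0.518 FPKM in MBT2 and 111 FPKM in MB49 (-6.12 ± 0.32, adjusted p = 6.58e-06). On the other side, Crabp2, which carries retinoic acid to its nuclear receptor, had 238, 266 and 254 FPKM in MBT2 tumours and 0.846, 1.83 and 0.743 FPKM in MB49 tumours (6.92 ± 0.18, adjusted p = 3.69e-07). Baiap2l1, a membrane-bending actin regulator, had 166, 145 and 142 FPKM in MBT2 tumours and 0.314, 0.233 and 0.213 FPKM in MB49 tumours (6.92 ± 0.11, adjusted p = 6.82e-08). Crmp1, a cytoskeletal protein of neurons, averaged 57.8 FPKM in MBT2, the highest of 11 models, and 0.192 FPKM in MB49 (5.63 ± 0.11, adjusted p = 1.06e-07). All 5 of these genes were called in the same direction in isotype tumours, where the difference was -6.37 for Emp2, -6.54 for Apcdd1, 7.21 for Crabp2, 6.79 for Baiap2l1 and 5.43 for Crmp1.

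Pseudogenes and retrocopies stood beside protein-coding genes at that end. Among genes that differed by at least 5 on the log2 scale, 28 of 12049 tested were protein coding, 10 higher and 18 lower in MBT2. Another 23 were pseudogenes, of 442 tested, 21 higher and 2 lower. Of all pseudogenes tested, 163 were called higher and 79 lower, and of all protein-coding genes 3265 higher and 2678 lower. Eno1b, an intronless copy of the enolase gene Eno1, had 564, 424 and 749 FPKM in MBT2 tumours and 2.01, 1.53 and 1.45 FPKM in MB49 tumours (7.73 ± 0.20, adjusted p = 3.44e-07), while Eno1 averaged 614 FPKM in MBT2 and 712 FPKM in MB49. Rps2-ps10, a copy of the ribosomal protein gene Rps2, averaged 980 FPKM in MBT2 and 17.1 FPKM in MB49, and its parent gene 205 FPKM in MBT2 and 2182 FPKM in MB49. Rpl15-ps3 showed the reverse, close to 0 in MBT2 and at 459 FPKM in MB49, with its parent Rpl15 at 338 FPKM in MBT2 and 720 FPKM in MB49. Fragments of near-identical copies are divided between them by the quantifier, so values of these copies and their parents are uncertain.

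Over the 11 models several such genes fell into the same split. Eno1b averaged 190 to 695 FPKM in 4T1, CM3, CT26, EMT6, RENCA and MBT2, and 1.66 to 25.4 FPKM in MB49, B16F10, LL2, MC38 and TC1, and Rps2-ps10, Hmga1b, Rbpj-ps3, H2-Ea-ps and Ifi202b divided the models in the same way. H2-Ea-ps, the annotated pseudogene of the class II alpha chain E, which is silent in some strains, had 77.5, 191 and 149 FPKM in MBT2 tumours and 0.0676, 0.138 and 0.0721 FPKM in MB49 tumours (6.91 ± 0.30, adjusted p = 2.85e-06). Rpl34-ps1 was high only in MBT2 and CM3, at 364 and 237 FPKM, and lay at 0.905 FPKM in MB49. Among 22 listed immune loci that vary between strains 19 were tested, 6 higher and 5 lower in MBT2, with a median of -0.0713, and 3 were lower without MB49 replicate 3. In isotype tumours 4 were higher and 10 lower, with a median of -0.816. Gbp2b, a guanylate-binding protein, averaged 68.8 FPKM in MBT2 and 2.83 FPKM in MB49 (4.18 ± 0.17, adjusted p = 2.41e-06), and H2-Q7, a nonclassical class I gene, 3.82 FPKM in MBT2 and 107 FPKM in MB49 (-4.48 ± 0.12, adjusted p = 4.07e-07). The hosts differ in strain, so for these genes the host and the line cannot be told apart.

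**Figure D5:**
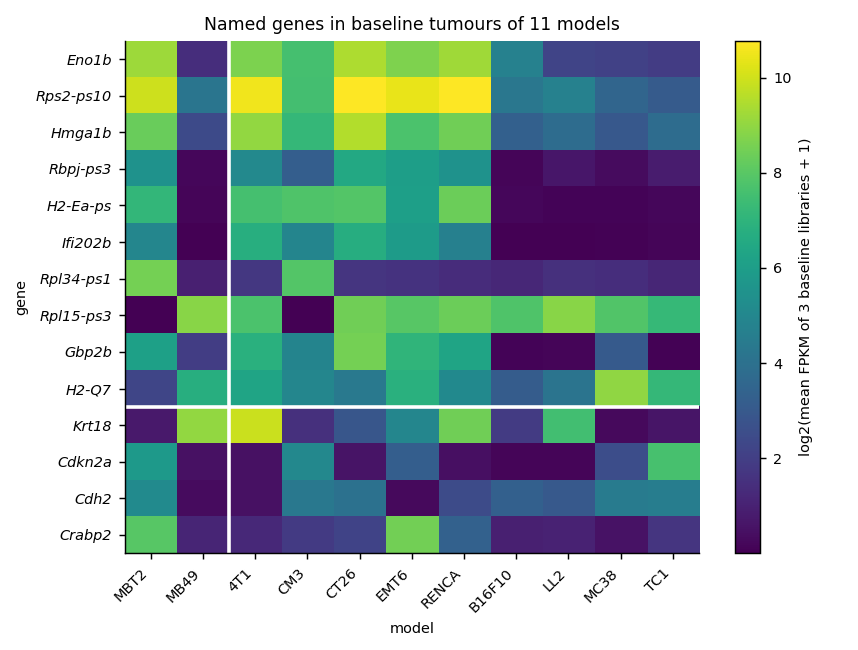
Heat map of log2(mean FPKM + 1) of named genes (rows) in the 3 baseline libraries of each of 11 models (columns), with MBT2 and MB49 at the left. The first 6 rows divide the models in the same 2 blocks, with Eno1b high in MBT2 and low in MB49, whereas the lower rows such as Krt18 and Cdkn2a vary from model to model.

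Whether the difference between the lines itself changed between baseline and isotype tumours was tested as an interaction over 13842 genes. Only 69 genes passed (0.498%), 30 with a more positive (0.217%) and 39 with a more negative (0.282%) difference in isotype tumours, while 1575 had an unadjusted p under 0.05. Time is confounded here with the injections and with the sample-number block, which cannot be told apart. Of all genes in the lists, H2-D1 and H2-Q1 passed. H2-D1 averaged 182 FPKM in MBT2 and 1401 FPKM in MB49 isotype tumours, a difference of -2.96, beside -1.59 at baseline (change -1.37, adjusted p = 0.00343). Xist, expressed from the inactive X of female cells, averaged 10.3 FPKM in MBT2 and 9.49 FPKM in MB49 at baseline (adjusted p = 0.623) and 14 FPKM in MBT2 and 4.45 FPKM in MB49 in isotype tumours (1.51, adjusted p = 2.72e-05), and the Y-linked Ddx3y was listed at 0 in the 6 baseline libraries.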

How the data were processed

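Per the labels' protocols, stranded libraries were made from total RNA of subcutaneous tumours after removal of ribosomal RNA and were read from both ends. The authors deposited a table of FPKM values for the whole series; the aligner, quantifier, build and gene models behind it were not given in the sources used here. Libraries were grouped by title. From the deposited FPKM, log2(FPKM + 1) was computed, and the lines were compared by limma-trend (limma 3.58.1, R 4.3.3) in 2-sided tests, and p-values were adjusted over all genes tested by the Benjamini-Hochberg method. Genes needed at least 1 FPKM in at least 3 of 6 baseline libraries, 5 of 10 isotype libraries, or 3 of 16 for the change between times. The fit was tested on simulated data. Gene types and chromosomes come from the GENCODE M21 annotation of GRCm38 and promoter sequences from RefSeq, neither taken to be the authors' build. Members and lists were chosen with earlier results of these data known. Named were, at baseline, the 15 largest differences in each direction with groups that did not overlap (no predicted, Rik or mitochondrial symbols), in every list the 2 largest in each direction and the most abundant member, and a fixed set from Pdcd1 to Trp53. Cdkn2b, Mtap, Mdm2, Egfr, Gata3, Krt19, Erbb2, Snai1, Zeb1, Hoxa11, Hoxc13, H2-Q1 and parent genes of copies were added after their values were seen. Ano1, Fgf15 and Shank2, near Ccnd1, were also outside the naming rule, as were some genes given without FPKM values. Replicate numbers were not used to pair libraries in the main fits. A gene that the rule names is not reported here.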

Additional observations from a re-analysis of the deposited data

Results flagged for a closer look

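The change of the MBT2 minus MB49 difference between isotype and baseline tumours passed for 3 named genes (limma, 2-sided, adjusted over all genes). H2-D1 averaged 182 FPKM in MBT2 and 1401 FPKM in MB49 isotype tumours, beside 435 FPKM in MBT2 and 1310 FPKM in MB49 baseline tumours, a change of -1.37 on the log2 scale (adjusted p = 0.00343). H2-Q1, another class I gene, averaged 2.77 FPKM in MBT2 and 0.101 FPKM in MB49 isotype tumours, beside 14.7 FPKM in MBT2 and 0.131 FPKM in MB49 baseline tumours, a change of -1.99 (adjusted p = 2.79e-05). Atp6v0c-ps2, a pseudogene, averaged 46.3 FPKM in MBT2 and 1.39 FPKM in MB49 isotype tumours, beside 93 FPKM in MBT2 and 1.19 FPKM in MB49 baseline tumours, a change of -1.11 (adjusted p = 0.00687).

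A single isotype library lay far from the other 4 of its group in 8 of 108 sets of values looked at, where chance flags about 1 in 20. MBT2 isotype replicate 2 had 6.97 FPKM of Krt5, with the others at 0 to 0.332 FPKM, and 7.82 FPKM of Krt14, with the others at 1.48 to 2.78 FPKM. The same library had a mean log2(FPKM + 1) of 1.64 over the keratinocyte list, with the others at 0.184 to 0.326, and of 2.26 over the basal and squamous list, with the others at 1.57 to 1.7. MBT2 isotype replicate 3 had 2.02 over the Hox list, with the others at 2.08 to 2.1, and 2.15 over the mast cell list, with the others at 2.94 to 3.08. MB49 isotype replicate 2 had 1848 FPKM of Vim, with the others at 1591 to 1619 FPKM, and MB49 isotype replicate 1 had 3.39 over the immediate early list, with the others at 3.77 to 3.88. Groups of 3 baseline libraries are too small for this check.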

How the results depend on the processing

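No named gene called in the comparisons changed sign under any alternative run. List medians near 0 did: T-cell-inflamed genes, 0.102, had -0.143 without MBT2 replicate 3 and -0.0396 without MB49 replicate 3; collagen, 0.139, had -0.339 and -0.0838 without the same libraries; imprinted genes, 0.089, had -0.0547 with no filter and -0.158 without MB49 replicate 3; hedgehog genes, 0.0498, had -0.145 with no filter, -0.00662 with quantile scaling and -0.135 without MB49 replicate 2; keratinocyte genes, -0.297, had 0.0394 with no filter and 0.637 with a filter at FPKM of at least 5; B and plasma cell genes, -0.167, had 0.126 without MB49 replicate 2; and Xist, 0.221, had -0.121 without MB49 replicate 3. The count of genes called at baseline, 6519, was 5341 with the replicate block, 7668 with a spread shared over 33 baseline libraries and 5280 to 6546 with 1 library left out, and 2505 with a log2 difference of at least 1 also required. In isotype tumours, 9015 became 9168 with the block and 8566 to 9340 with 1 library left out. The 69 genes whose difference changed between times, 30 more positive and 39 more negative, became 24 at a pseudocount of 0.1 (14 and 10), 113 with no filter (63 and 50), 39 with a filter at FPKM of at least 5, 31 with the replicate block and 46 to 80 with 1 library left out (46 without MBT2 baseline replicate 3). Of 44 lists 23 had a positive median, 19 to 23 with 1 library left out. Same-numbered libraries correlated at 0.0721, -0.281 and -0.259 at baseline and at -0.0882 to 0.5 in isotype tumours. With so few libraries per group these values cannot decide whether the numbers pair them. Of 10635 values of named genes under alternatives, 153 lost their call and 32 gained it; of 659 list medians 38 moved beyond the spread. The cause of these shifts was not tested. Median-ratio and quantile scaling set the median of all genes to 0.011 and 0.00261 and the share of higher calls to 51.7% and 51.1%, beside 54.7%. Depth is estimated, and FPKM under about 1 is imprecise in every library.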

Other observations

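Smaller lists that the text above does not use gave a few further differences. Of 11 imprinted growth genes 6 were tested, with 1 higher and 1 lower in MBT2, and 2 lower without MB49 replicate 1. Mest, which is expressed from the paternal allele, averaged 10.2 FPKM in MBT2 and 3.01 FPKM in MB49 (1.45, limma adjusted p = 0.000815), and Phlda2, expressed from the maternal allele, was listed at 0 in the 3 MBT2 tumours and averaged 2.86 FPKM in MB49 tumours (adjusted p = 1.12e-05). Of 12 immediate early genes 3 were higher and 2 lower in MBT2, so that the early response factors split: Egr3 averaged 2.05 FPKM in MBT2 and 0.633 FPKM in MB49 (0.90, adjusted p = 0.000789), and Egr2 2.31 FPKM in MBT2 and 7.14 FPKM in MB49 (-1.32, adjusted p = 0.00218). Jun, a subunit of AP-1, averaged 36.6 FPKM in MBT2 and 59.6 FPKM in MB49 (-0.70, adjusted p = 0.00136). Of 7 melanocyte genes only Mitf was tested, at 3.78 FPKM in MBT2 and 2.18 FPKM in MB49 (0.59, adjusted p = 0.00584).

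Runs of 15 neighbouring genes along a chromosome (GENCODE M21 order) were looked at after the values were seen and are given as values, with no test. Over 11749 such runs the median difference at baseline had a 1st percentile of -0.69, a median of 0.06 and a 99th percentile of 1.09. The run from Fv1 to Exosc10 on chromosome 4 had a median of 1.56, with 14 of its 15 genes called higher and 1 lower in MBT2, and 1.33 in isotype tumours. The run from Ccdc57 to Metrnl on chromosome 11 had 1.41, with 14 called higher and 0 lower, and 1.39 in isotype tumours. Between them in size, Ripk3 to Gzmc on chromosome 14 had 1.42, with 8 called higher and 3 lower, but 0.31 in isotype tumours. On chromosome 3, Mex3a to Hcn3 had 1.31, and 1.21 in isotype tumours. On the low side, Ppp1r13b to Nudt14 on chromosome 12 had -1.01, and -1.05 in isotype tumours, Pank1 to Cep55 on chromosome 19 had -0.97, and -0.49 in isotype tumours, and Tspyl2 to Bclaf3 on chromosome X had -0.93, and -0.91 in isotype tumours.

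Near the cyclin D1 gene on chromosome 7, Ano1, which encodes a chloride channel, averaged 0.71 FPKM in MBT2 and 50.8 FPKM in MB49 (-4.89, limma adjusted p = 4.21e-06), and Fgf15 0.143 FPKM in MBT2 and 33.9 FPKM in MB49 (-4.93, adjusted p = 3.93e-07), while Shank2 averaged 6.56 FPKM in MBT2 and 0.196 FPKM in MB49 (2.65, adjusted p = 1.48e-05). Ccnd1 itself averaged 140 FPKM in MBT2 and 213 FPKM in MB49 (-0.63, adjusted p = 0.0243), and was not called without MB49 replicate 1 (-0.65, adjusted p = 0.0565) or MB49 replicate 3 (-0.55, adjusted p = 0.0776). Of 442 pseudogenes tested, 163 were higher and 79 lower in MBT2 (54.8% called), and of 12049 protein-coding genes 49.3% were called. Among 13 mitochondrial transcripts 4 were lower and 0 higher in MBT2 at baseline, with a median of -0.486, but 2 lower and 5 higher in isotype tumours, with a median of 0.159. At baseline mt-Co3 averaged 635 FPKM in MBT2, the lowest of 11 models, and 2145 FPKM in MB49 (-1.80, adjusted p = 0.000462), and the 4 became 2 without MB49 replicate 1 or MB49 replicate 2. Without MBT2 replicate 3, whose mitochondrial share was 2.17%, 3 were lower and 1 higher, with a median of -0.124.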
